A study of Mus musculus with 9 samples.

Results

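The 37 genes described here are interferon-stimulated genes, a list of symbols grouped here by role: 4 transcription factors, 5 sensors of foreign RNA or DNA, 11 antiviral effectors, 5 ubiquitin-like or ADP-ribosylation factors, 5 interferon-inducible GTPases and 7 other induced genes. They were measured in the mediobasal hypothalamus (MBH) of male mice at postnatal day 21, among 15340 genes that were high enough to test. RNA sequencing covered 9 litters, 1 library each: 4 whose dams drank water (CTRL) and 5 whose dams drank water with 1% carboxymethyl cellulose (CMC) and 1% polysorbate 80 (P80), common food emulsifiers (Emul). All animals were wild-type C57Bl/6, the Emul dams had the emulsifiers from before mating until weaning, and the study's methods say that direct exposure of the pups before weaning cannot be discounted. Of the 37 genes, 34 had a row in the log2 CPM table the authors deposited. Ifit3b, Rtp4 and Zbp1 had none, so all 37 were followed in gene sums of the estimated counts of their transcripts, and 36 passed the filter of a CPM (counts scaled to the library's total) above 1 in at least 4 libraries. Zbp1 did not pass.

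Interferons are cytokines released by cells that sense a virus or foreign nucleic acid. Type I interferons bind a receptor that activates the kinases Jak1 and Tyk2, which act on Stat2, and a complex that holds Stat2 and Irf9 binds the interferon-stimulated response element (ISRE) of its target genes. Interferon-gamma has a receptor of its own and acts on genes through the gamma-activated sequence (GAS). In the brain, low tonic interferon signalling is known from microglia, endothelium, astrocytes and neurons, and the same genes increase sharply during viral infection.

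An ISRE sequence was found in many, but not all, of the promoters. RefSeq (build GRCm38.p6) gave promoter windows, from 250 bases before the start to 50 after it, for 30 of the 37 genes; Parp14, Usp18, Ifi27, Rtp4, Zbp1, Dhx58 and Parp9 were not matched. Windows were searched on both strands for the ISRE core GAAANNGAAA, whose reverse is TTTCNNTTTC, and for the GAS core TTCNNNGAA, which reads alike on both strands. Neighbouring ISRE cores may overlap, and a GAS core may overlap an ISRE core. An ISRE core lay in 18 of the 30 (60%) against 3.99% of all 27025 genes with a window, and 8 held 2 or more cores against 0.266%. A GAS core lay in 8 of the 30 (26.7%) against 9.55%. Both were present in 5 genes, a GAS core alone in 3 (Ifi35, Ifit2 and Irf1) and neither in 9. The stretches below belong to the genes the results turn on and are written 5′ to 3′ along the gene's strand, with the cores in capitals.
Rsad2 (chr12:26456543-26456592, minus strand): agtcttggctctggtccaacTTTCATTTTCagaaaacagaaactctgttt
Ifit3 (chr19:34583353-34583436, plus strand): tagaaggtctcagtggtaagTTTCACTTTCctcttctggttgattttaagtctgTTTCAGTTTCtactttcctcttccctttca
Ifit3b (chr19:34607749-34607832, plus strand): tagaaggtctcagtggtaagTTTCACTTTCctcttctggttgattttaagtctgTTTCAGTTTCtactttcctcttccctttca
Ifit1 (chr19:34640765-34640833, plus strand): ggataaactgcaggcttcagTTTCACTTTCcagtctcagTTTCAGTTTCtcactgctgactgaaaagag
Isg15 (chr4:156200855-156200916, minus strand): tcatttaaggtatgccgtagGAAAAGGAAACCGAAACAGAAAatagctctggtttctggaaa
Irf1 (chr11:53769904-53769952, plus strand): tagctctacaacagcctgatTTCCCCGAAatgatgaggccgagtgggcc
The stretches of Ifit3 and Ifit3b were identical over all 84 bases, with 2 ISRE cores each. Isg15 held 3 overlapping ISRE cores, and Irf1 held a GAS core and no ISRE core. The core of Eif2ak2 lay after the start, in the transcribed part of its window. A match describes letters only; it is not a measured binding site.

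Levels were low in every library. In TPM, a unit scaled to transcript length and library total in which genes can be compared, the medians over the 9 libraries ran from 39.5 for Ifi27 down to 0.237 for Zbp1. Lgals3bp, a secreted scavenger-receptor protein, stood second at 27.9 TPM. Ddx58, which encodes the RNA sensor RIG-I, had a median of 20.4 TPM and Stat2 one of 18.4 TPM. Next in order were the membrane proteins Ifitm3 (17.8 TPM) and Ifitm2 (17.6 TPM), then Irf9 (11.6 TPM) and Ifit2 (11.2 TPM). The lowest tested genes were Rsad2 (1.23 TPM) and Ifi44 (0.916 TPM). Neighbours in this order mostly overlapped across libraries, as the plot of levels shows. On the log2 CPM scale the median member lay at 2.11 against 4.61 over all genes tested. The members' fold changes were less precise accordingly, with a median SE of 0.157 on the log2 scale against 0.0579 over all genes.

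**Figure D1:**
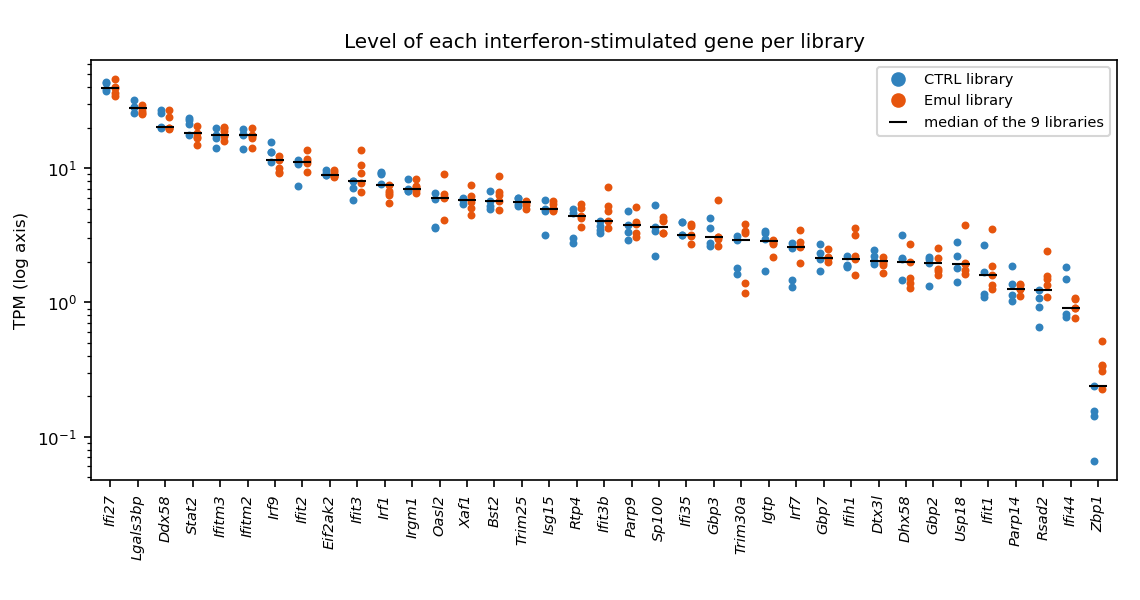
Level of each of the 37 interferon-stimulated genes. The vertical axis is TPM on a log axis, blue points are the 4 CTRL libraries, orange points the 5 Emul libraries and black bars the median of the 9; medians run from 39.5 TPM for Ifi27 to 0.237 TPM for Zbp1.

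The interferons themselves were near the limit of detection. Of 21 ligand genes, none passed the filter, and 8 had no count in any library, Ifnb1 among them. Ifng had the most, with 34 counts over the 9 libraries and at most 7 in 1 of them. A count of 0 in a library still allows up to 3 counts there, and these limits cover counting error only. No ligand could therefore be compared between CTRL and Emul at this depth, which ran from 28245360 to 46067534 estimated counts per library.

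In most members Emul 2 and CTRL 4 each stood above the rest of their group, as set out after the results by role. The counts of calls and the correlations between members are also given without them. Counts of genes above 0, medians by role and values by promoter motif are given with all 9 libraries only. The comparison of Emul with CTRL asks whether maternal emulsifiers went with a change of this gene set in the offspring's MBH. At an unadjusted p under 0.05, 5 of the 36 tested members passed, a share of 13.9% against 15.8% of all genes tested. The 4 members higher in Emul were the antiviral effectors Rsad2, Ifit3b, Ifit3 and Eif2ak2, which is 11.1% of members against 6.84% of all genes. The transcription factor Irf1 was the only member lower in Emul, 2.78% against 8.99%. With the further requirement of a change above 1.5-fold, the cutoff in the study's methods, Rsad2 alone passed (2.78% against 0.469%). The legend of the study's volcano plot names a false discovery rate, an adjusted p, at 0.05 instead. No member passed an adjusted p under 0.05 in limma-voom, where 0.117% of all genes did, nor in edgeR, limma-trend or DESeq2, the last of which gave 2.43% of all genes. Each of these tools gave 6 members (16.7%) at an unadjusted p under 0.05, against 16.1% of all genes in edgeR, 16.2% in limma-trend and 15.2% in DESeq2. Under an adjusted p of 0.10 the count was also 0 in limma-voom, against 0.398% of all genes, and in edgeR and limma-trend. In DESeq2, Rsad2 (adjusted p = 0.0706) and Ifit3b (adjusted p = 0.0894) passed it, 2 of the 29 members with an adjusted p there (6.9%) against 4.86% of all genes. The smallest p that an exact permutation test of 4 against 5 libraries can give is 0.00794. No member separated the groups without overlap, against 6.6% of all genes.

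The direction was more uniform than the calls. The fitted log2 fold change was above 0 for 28 of the 36 members (77.8%), against 50.8% of all genes, and the median was 0.14 against 0.00. The members are not independent of one another, since they share libraries and, as described further on, vary together within each group. They were also chosen with earlier results of these data known, so the comparison with all genes is a description and not a test. With library size alone as the scaling, in place of TMM factors, 4 members passed an unadjusted p under 0.05, 2 higher (Rsad2 and Ifit3b) and 2 lower (Irf1 and Irf9), which is 11.1% against 18% of all genes. In the authors' log2 CPM table, Ifit3, Irf7 and Rsad2 were higher and Irf1 was lower at p under 0.05 by limma, 4 of 34 members (11.8%) against 13.5% of all genes there. In that table Ifi44, Parp9 and Parp14 had the opposite direction to the fit of the counts, with the values given under their roles. In bulk tissue, fewer cells of a type and less RNA per cell cannot be told apart.

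**Figure D2:**
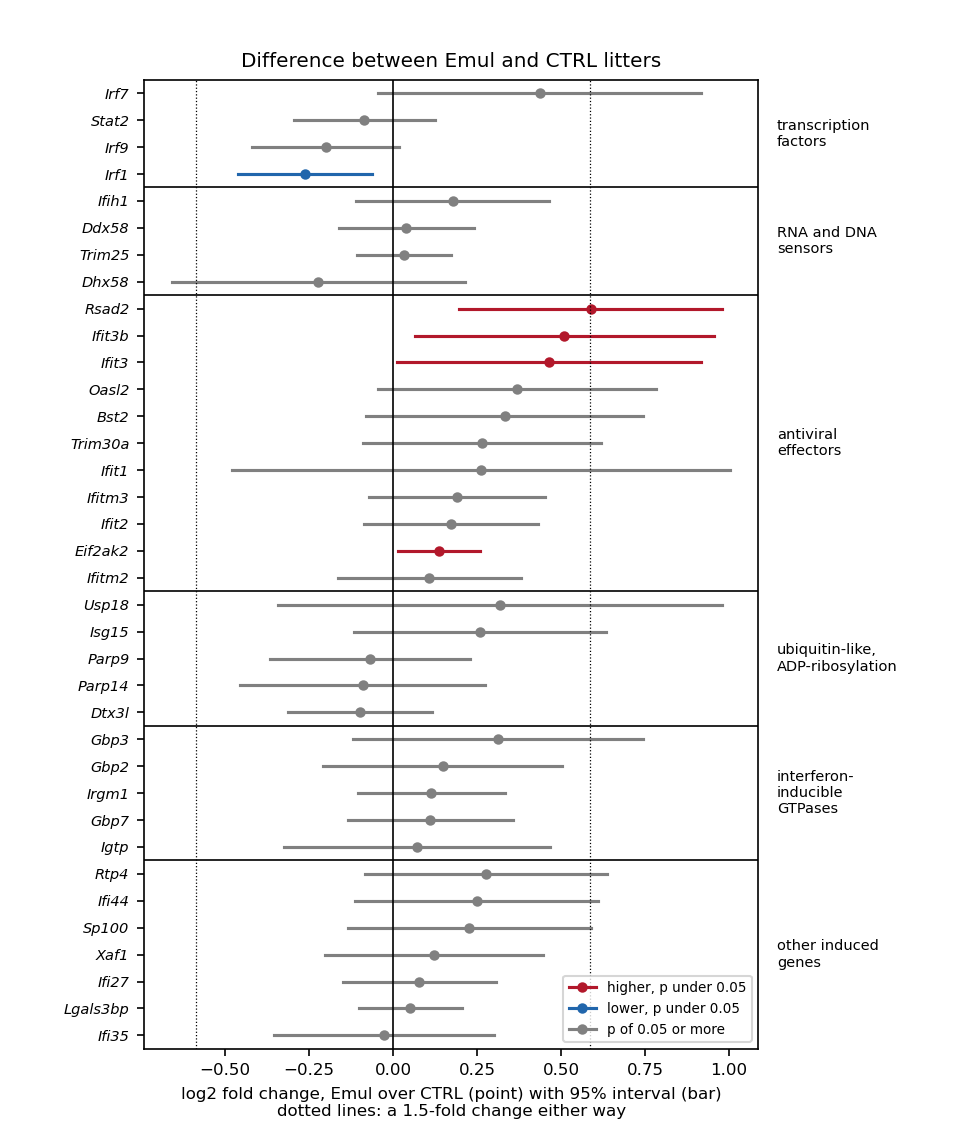
Difference between the groups for the 36 tested members, sorted by role. Points are limma-voom log2 fold changes of Emul over CTRL and bars their 95% intervals; red marks the 4 genes higher and blue the 1 gene lower at an unadjusted p under 0.05, and dotted lines mark a 1.5-fold change.

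The transcription factors differed in direction. Stat2, Irf9 and Irf1 had lower means in Emul and Irf7 a higher one, with a median of -0.14 over the 4 and 1 call, Irf1. Irf1 (chr11:53770014-53778374, plus strand), a factor that is induced early by interferon-gamma, measured 2.70, 2.87, 2.66 and 2.89 in CTRL 1 to 4 and 2.57, 2.69, 2.55, 2.31 and 2.57 in Emul 1 to 5 (log2 CPM, here and for the genes that follow). CTRL 2 and CTRL 4 were the highest and Emul 4 the lowest, and only Emul 2 reached into the CTRL range. Its log2 fold change was -0.26 ± 0.092 (SE), p = 0.0142 and adjusted p = 0.208 by limma, with an exact permutation p of 0.0238. That is 0.834 of the CTRL level. Irf1 passed an unadjusted p under 0.05 in 25 of the 26 fits run, alternatives included, the exception being the one without CTRL 4 (log2 fold change -0.22).

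Irf9, the DNA-binding subunit of the type I interferon complex, measured 3.71, 3.92, 3.97 and 4.16 in CTRL 1 to 4 and 3.71, 3.97, 3.85, 3.61 and 3.57 in Emul 1 to 5. CTRL 4 was highest, and CTRL 1 lay among the Emul libraries. Irf9 had a log2 fold change of -0.20 ± 0.10 (SE), p = 0.0686 and adjusted p = 0.354 by limma, with an exact permutation p of 0.159. It passed an unadjusted p under 0.05 without Emul 2 (-0.26) and without CTRL 1 (-0.28). Stat2, its partner, read 4.33, 4.43, 4.42 and 4.61 in CTRL 1 to 4 and 4.25, 4.63, 4.50, 4.31 and 4.11 in Emul 1 to 5, and the highest library of each group exceeded the others, Emul 2 and CTRL 4. For Stat2 the log2 fold change came to -0.09 ± 0.096 (SE), p = 0.389 and adjusted p = 0.701 by limma, with an exact permutation p of 0.5. Irf7, the factor that amplifies type I interferon production, read 0.26, 0.42, 0.91 and 1.32 in CTRL 1 to 4 and 1.19, 1.59, 1.06, 0.95 and 0.99 in Emul 1 to 5. CTRL 1 and CTRL 2 were low, while CTRL 4 stood above all Emul libraries but Emul 2. The log2 fold change of Irf7 was 0.44 ± 0.22 (SE), p = 0.0711 and adjusted p = 0.359 by limma, with an exact permutation p of 0.159. It passed an unadjusted p under 0.05 without CTRL 4, at 0.67, and at 0.59 in the log2 CPM table. Its transcripts were mixed: retained-intron forms included the most abundant, Irf7-210, with 28.7% of the gene's counts.

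The 4 tested sensors showed no call, and their median log2 fold change was 0.04. Ddx58 (RIG-I, which binds viral RNA with a free 5′ triphosphate) measured 3.19, 3.30, 3.34 and 3.52 in CTRL 1 to 4 and 3.31, 3.60, 3.48, 3.21 and 3.31 in Emul 1 to 5, so the groups overlapped throughout. Its log2 fold change was 0.04 ± 0.092 (SE), p = 0.676 and adjusted p = 0.872 by limma, with an exact permutation p of 0.675. The sign turned without CTRL 1, without Emul 2 and with protein-coding transcripts alone. Much of its level came from 2 processed transcripts, with 25.4% and 24.5% of the counts. Ifih1, which encodes MDA5, a sensor of long double-stranded RNA, read 2.06, 2.27, 2.05 and 2.12 in CTRL 1 to 4 and 1.99, 2.47, 2.46, 2.54 and 2.04 in Emul 1 to 5. Emul 2, Emul 3 and Emul 4 lay above every CTRL library, and Emul 1 and Emul 5 lay below all of them. Ifih1 had a log2 fold change of 0.18 ± 0.13 (SE), p = 0.203 and adjusted p = 0.542 by limma, with an exact permutation p of 0.238. In the authors' log2 CPM table its value was 0.42, which did not pass an unadjusted p under 0.05. Dhx58 (LGP2, a regulator of both sensors) had a log2 fold change of -0.22 ± 0.20 (SE), and Trim25, the ubiquitin ligase that activates RIG-I, one of 0.03 ± 0.064. Zbp1, a sensor of Z-form nucleic acid, had 3 to 15 counts per library and was not tested in the main fit. With no filter on low counts and with a filter at a CPM above 0.2, Zbp1 passed an unadjusted p under 0.05 by limma. Its log2 CPM was -1.80, -3.01, -2.67 and -2.58 in CTRL 1 to 4 and -2.30, -1.28, -1.24, -1.77 and -1.88 in Emul 1 to 5, with a two-sided exact permutation p of 0.0476.

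All 11 antiviral effectors had a fitted log2 fold change above 0, with a median of 0.26, and 4 rose at an unadjusted p under 0.05. Rsad2 (chr12:26442746-26456452, minus strand), which encodes viperin, an enzyme that makes a chain-terminating nucleotide, measured 0.85, 1.02, 0.32 and 1.25 in CTRL 1 to 4 and 1.17, 1.74, 1.61, 1.40 and 1.46 in Emul 1 to 5. CTRL 3 was the lowest of the 9 and Emul 2 the highest, and CTRL 4 lay above Emul 1, the only crossing between the groups. Rsad2 averaged 0.86 ± 0.39 (SD) over the 4 CTRL libraries and 1.48 ± 0.22 (SD) over the 5 Emul libraries. The fitted log2 fold change was 0.59 ± 0.18 (SE), p = 0.00653 and adjusted p = 0.177 by limma, with an exact permutation p of 0.0238. This lies at the edge of the 1.5-fold cutoff, and counts in a library ran from 34.2 to 136. Rsad2 passed an unadjusted p under 0.05 in all 26 fits. Without CTRL 1, CTRL 3, Emul 2 or Emul 3, each left out alone, its change lay under the 1.5-fold line.

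Ifit3 and Ifit3b, neighbouring genes for tetratricopeptide proteins that help Ifit1 hold foreign RNA, both rose at an unadjusted p under 0.05. Ifit3 (chr19:34583531-34588731, plus strand) measured 2.29, 2.70, 2.51 and 2.75 in CTRL 1 to 4 and 3.03, 3.66, 3.22, 2.73 and 2.53 in Emul 1 to 5. Emul 2, Emul 3 and Emul 1 lay above the CTRL range, while Emul 4 and Emul 5 lay within it. Its log2 fold change was 0.46 ± 0.21 (SE), p = 0.0447 and adjusted p = 0.302 by limma, with an exact permutation p of 0.0952. Ifit3b (chr19:34607970-34613401, plus strand), which the authors' table lacked, read 1.77, 1.82, 1.63 and 1.97 in CTRL 1 to 4 and 2.42, 2.97, 2.29, 2.02 and 1.86 in Emul 1 to 5. Only Emul 5 fell within the CTRL range. Ifit3b had a log2 fold change of 0.51 ± 0.20 (SE), p = 0.0279 and adjusted p = 0.256 by limma, with an exact permutation p of 0.0476. The transcripts of Ifit3 share 61.8% of their 31-base words with Ifit3b, and 54.1% of those of Ifit3b occur in Ifit3, so the split of reads between them is uncertain. Summed to 1 feature, the pair had a log2 fold change of 0.48 ± 0.20 (SE) with an adjusted p of 0.266 by limma, and it kept an unadjusted p under 0.05. Alone, Ifit3 lost that threshold in each fit that left out CTRL 1, CTRL 2, CTRL 3, Emul 1, Emul 2 or Emul 3, with log2 fold changes from 0.30 (without Emul 2) to 0.51 (without CTRL 2). Ifit3 also lost it without CTRL 4 and Emul 2 together, with library size alone and with protein-coding transcripts alone. Ifit3b lost it without CTRL 1, CTRL 2 or CTRL 3, at 0.47 to 0.51, and kept it without Emul 2.

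Eif2ak2 (chr17:78852564-78882573, minus strand) encodes PKR, the kinase that halts translation on binding double-stranded RNA. It read 3.93, 3.83, 3.92 and 4.02 in CTRL 1 to 4 and 3.96, 4.11, 4.15, 4.06 and 4.04 in Emul 1 to 5, a narrow range within each group, with CTRL 4 above Emul 1. Eif2ak2 had a log2 fold change of 0.14 ± 0.056 (SE), p = 0.0304 and adjusted p = 0.261 by limma, with an exact permutation p of 0.0317. The rise was the smallest of the 4 and missed the threshold in the log2 CPM table, at 0.07, and with counts scaled for transcript length, at 0.063. It also missed it without CTRL 1, CTRL 2, CTRL 3, Emul 2 or Emul 3, each left out alone, at 0.10 to 0.14. With library size alone and with the replicate number as a block Eif2ak2 missed the threshold too.

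Ifit1, which binds RNA with an unmethylated cap, measured 0.57, 1.13, 0.60 and 1.83 in CTRL 1 to 4 and 1.40, 2.37, 1.17, 0.89 and 0.81 in Emul 1 to 5. Emul 2 was highest and CTRL 4 second, and the SD within each group was larger than the difference between the groups. Its log2 fold change was 0.26 ± 0.34 (SE), p = 0.454 and adjusted p = 0.746 by limma, with an exact permutation p of 0.532. Without Emul 2 the value was -0.0090. Oasl2, a protein related to the 2′-5′ oligoadenylate synthases, read 1.91, 2.23, 1.87 and 2.35 in CTRL 1 to 4 and 2.34, 3.11, 2.48, 2.16 and 2.31 in Emul 1 to 5, again with Emul 2 far above the rest. Oasl2 had a log2 fold change of 0.37 ± 0.19 (SE), p = 0.0751 and adjusted p = 0.369 by limma, with an exact permutation p of 0.127. Oasl2 passed an unadjusted p under 0.05 in edgeR and in DESeq2, at 0.41 in both, in limma-trend, at 0.39, with the replicate number as a block, at 0.45, without Emul 4, at 0.46, without both CTRL 4 and Emul 2, at 0.30, and with protein-coding transcripts alone, at 0.80. The transcript with most counts, 51.1%, is annotated as a target of nonsense-mediated decay. Bst2, or tetherin, which holds budding virions at the cell surface, had 0.83, 0.79, 0.43 and 0.98 in CTRL 1 to 4 and 0.72, 1.64, 1.15, 0.98 and 1.03 in Emul 1 to 5. Emul 2 was the highest and CTRL 3 the lowest. For Bst2 the log2 fold change was 0.33 ± 0.19 (SE), p = 0.105 and adjusted p = 0.418 by limma, with an exact permutation p of 0.135. Without Emul 1 it passed an unadjusted p under 0.05, at 0.43.

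Ifitm3, a membrane protein that blocks virus entry through endosomes, read 2.30, 2.43, 1.86 and 2.22 in CTRL 1 to 4 and 2.44, 2.60, 2.51, 2.30 and 2.21 in Emul 1 to 5. CTRL 3 lay apart below the rest. For Ifitm3 the log2 fold change was 0.19 ± 0.12 (SE), p = 0.138 and adjusted p = 0.466 by limma, with an exact permutation p of 0.167. Its neighbour Ifitm2 had 0.11 ± 0.12 (SE) and shares 55.5% of its 31-base words with other genes, so its counts are uncertain. Ifit2, another tetratricopeptide protein, had 0.17 ± 0.12, with CTRL 3 far below the other CTRL libraries, and Trim30a, a ubiquitin ligase of the tripartite motif family, 0.26 ± 0.16.

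**Figure D3:**
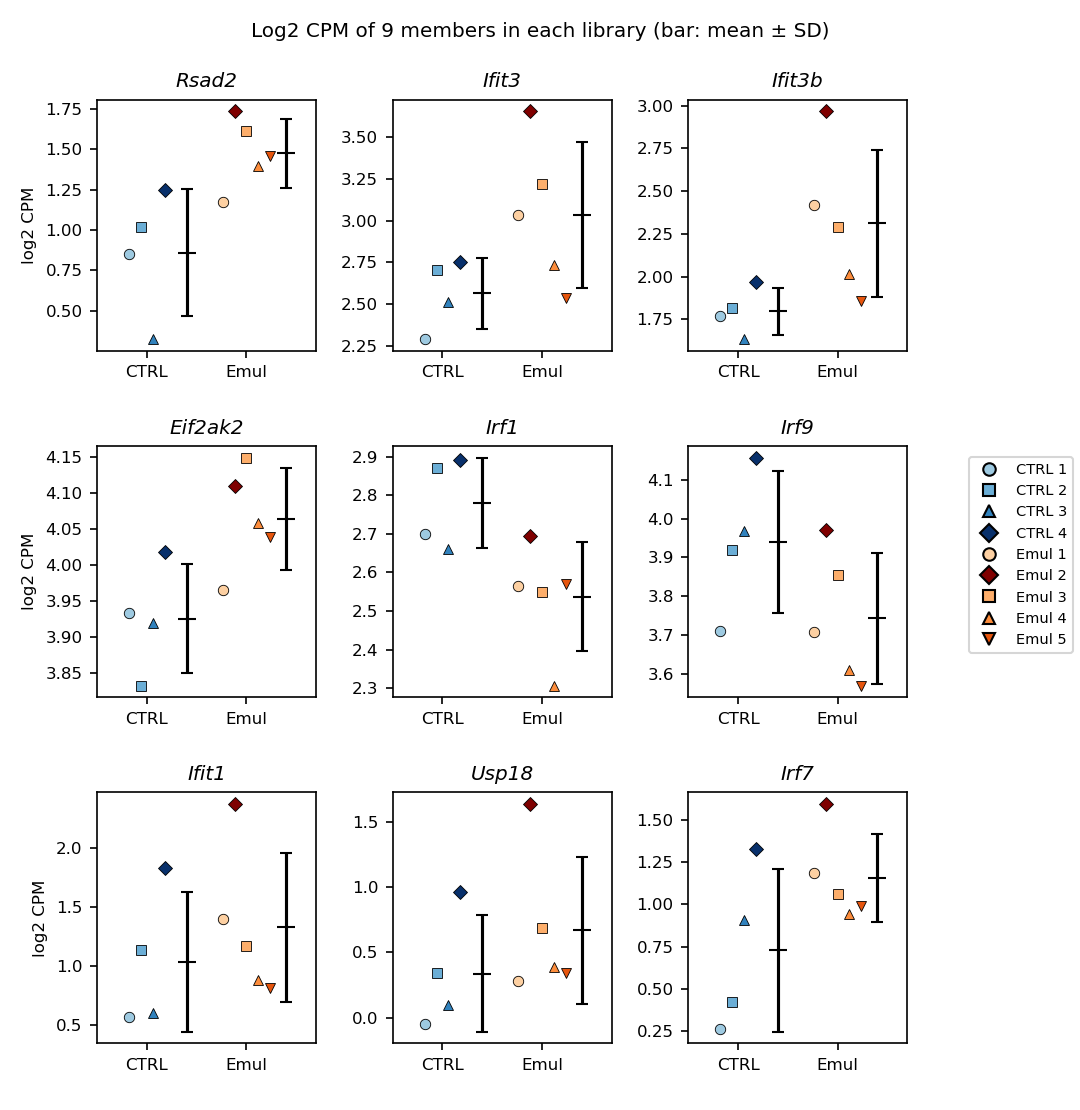
Log2 CPM of 9 interferon-stimulated genes in each library. Blue symbols are CTRL libraries, orange to red symbols Emul libraries, dark diamonds CTRL 4 and Emul 2, and black bars the mean ± SD of each group; Emul 2 is the highest of the Emul libraries in 8 of the 9 panels and CTRL 4 the highest of the CTRL libraries in all 9.

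The ubiquitin-like and ADP-ribosylation factors had no call and a median of -0.07. Isg15, the ubiquitin-like protein that is joined to other proteins after interferon, read -0.05, 0.49, 0.45 and 0.78 in CTRL 1 to 4 and 0.65, 0.88, 0.55, 0.57 and 0.74 in Emul 1 to 5. CTRL 1, CTRL 3 and CTRL 2 lay below every Emul library, CTRL 1 by the most, and CTRL 4 lay above all of them but Emul 2. For Isg15 the log2 fold change was 0.26 ± 0.17 (SE), p = 0.159 and adjusted p = 0.492 by limma, with an exact permutation p of 0.151. Usp18, the protease that removes Isg15 and damps the type I receptor, measured -0.05, 0.34, 0.09 and 0.96 in CTRL 1 to 4 and 0.28, 1.64, 0.69, 0.39 and 0.34 in Emul 1 to 5. Emul 2 was highest and CTRL 4 second, as for Ifit1. Its log2 fold change was 0.32 ± 0.30 (SE), p = 0.316 and adjusted p = 0.644 by limma, with an exact permutation p of 0.397. The partners Parp9 and Dtx3l had -0.07 ± 0.14 and -0.10 ± 0.099 (SE), and Parp14, an ADP-ribosyltransferase, -0.09 ± 0.17. In the authors' log2 CPM table and with counts scaled for transcript length Parp9 (0.15 and 0.16) and Parp14 (0.046 and 0.0051) were above 0, and Parp14 was also above 0 without CTRL 4 (0.11). Parp9 and Dtx3l overlap at their ends on opposite strands of chromosome 16, and whether the counting used strand is not given in the sources used here.

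Interferon-inducible GTPases, which act on membranes around intracellular pathogens, had no call either, although all 5 had a log2 fold change above 0 (median 0.11). Gbp3, a guanylate-binding protein, read 1.43, 1.45, 1.17 and 1.95 in CTRL 1 to 4 and 1.69, 2.39, 1.95, 1.65 and 1.49 in Emul 1 to 5. Emul 2 was highest, with CTRL 4 and Emul 3 nearly level behind it. Gbp3 had a log2 fold change of 0.31 ± 0.20 (SE), p = 0.139 and adjusted p = 0.467 by limma, with an exact permutation p of 0.167. In the log2 CPM table it was 0.15. Igtp (Irgm3) measured 0.78, 1.51, 1.63 and 1.74 in CTRL 1 to 4 and 1.52, 1.58, 1.19, 1.53 and 1.57 in Emul 1 to 5, with CTRL 1 lowest and Emul 3 apart below the other Emul libraries, and the groups overlapped. Its log2 fold change was 0.07 ± 0.18 (SE), p = 0.706 and adjusted p = 0.886 by limma, with an exact permutation p of 0.81. Gbp2 had 0.15 ± 0.16 (SE), Gbp7, with Emul 2 apart above the other Emul libraries, 0.11 ± 0.11 and Irgm1 0.11 ± 0.10.

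Among the other induced genes none was called. Rtp4, a chaperone of surface receptors, had a log2 fold change of 0.28 ± 0.17 (SE), Ifi44 0.25 ± 0.17 and Sp100, a nuclear body protein, 0.23 ± 0.17. Ifi44 was below 0 in the authors' log2 CPM table (-0.19) and with counts scaled for transcript length (-0.22). Xaf1, a pro-apoptotic protein, had 0.12 ± 0.15, Ifi27, a mitochondrial protein with its lowest level in CTRL 3, 0.08 ± 0.10, Lgals3bp 0.05 ± 0.071 and Ifi35 -0.03 ± 0.15.

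Libraries of the same group stood apart in these genes. Emul 2 was the highest of all 9 libraries for 21 of the 36 members (58.3%), against 12.2% of all genes. It was above the mean of the other Emul libraries for 34 of them, by a median of 0.28 on the log2 scale, against 0.00 over all genes. The excess was largest for Ifit1 (1.31), Usp18 (1.21), Ifit3b (0.82), Oasl2 (0.79) and Ifit3 (0.78). Among the CTRL libraries CTRL 4 stood out in the same way. It was the highest CTRL library for 27 of the 36, against 22.8% of all genes. CTRL 4 was above the mean of the other CTRL libraries for 35, and the median excess was 0.29 against 0.00 over all genes. Ifit1 (1.06) and Usp18 (0.84) were again among the genes with most excess, with Irf7 (0.79), Parp14 (0.73) and Sp100 (0.71). At the other end, CTRL 1 was the lowest of the 9 for 13 members and CTRL 3 for 12, against 9.30% and 15.5% of all genes.

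**Figure D4:**
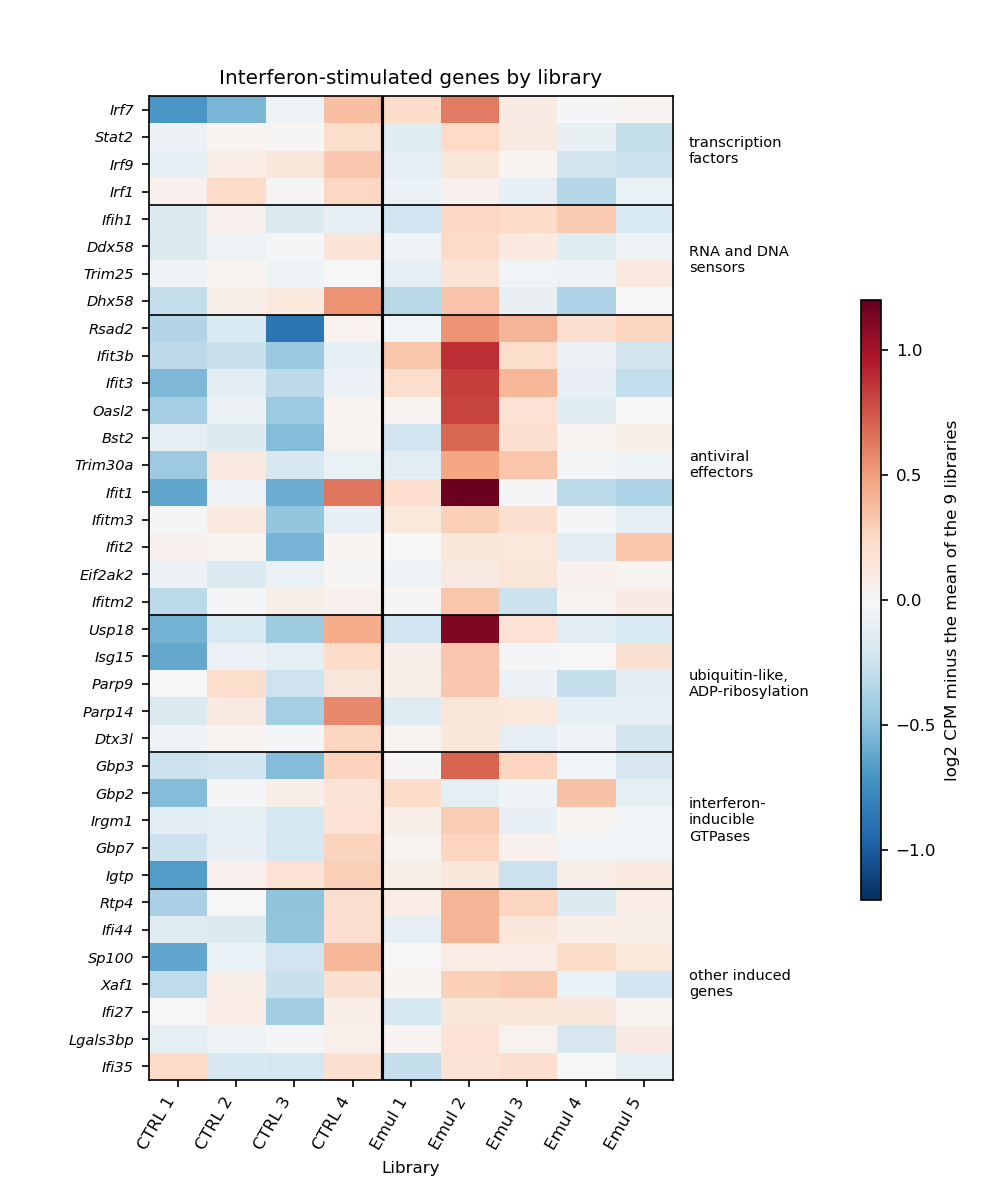
Deviation of each of the 36 tested members from its mean over the 9 libraries. Columns are libraries, rows are genes grouped by role, and the colour is log2 CPM minus that mean, red above and blue below; Emul 2 is the highest library for 21 genes, CTRL 4 for 8, and CTRL 1 or CTRL 3 the lowest for 25.

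The members varied together from library to library. After the group means were taken out, the mean correlation between pairs of members over the 9 libraries was 0.50, against 0.00 between all genes. It was 0.41 without Emul 2, 0.42 without CTRL 4 and 0.20 without both. These correlations rest on 9 points that share libraries and depth, and are a description. Usp18 (mean correlation with the other members 0.69), Ifit1 (0.67), Oasl2 (0.67), Gbp7 (0.67) and Gbp3 (0.67) followed the others most closely, while Gbp2 (0.02), Ifit2 (0.22), Igtp (0.27) and Ifih1 (0.28) followed them least.

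Depth and markers of other cells were set beside these libraries. CTRL 4 and Emul 2 had 43404813 and 42770707 estimated counts, and median deviations of the members of 0.18 and 0.28. CTRL 3 had the fewest counts of all and a median deviation of -0.20, and Emul 4 had the most and one of -0.04. After every library was thinned to the total of CTRL 3, an alternative chosen after seeing the data, Emul 2 was the highest for 19 members and CTRL 4 for 10. The 12 microglia markers summed to 337 TPM in Emul 2 and 383 TPM in CTRL 4, within or at the end of the ranges of 331 to 373 TPM in Emul and 350 to 383 TPM in CTRL. Perivascular macrophage markers summed to 10.1 TPM in Emul 2, the lowest of the Emul libraries, and to 10.4 TPM in CTRL 4. Endothelial markers summed to 230.0 TPM in Emul 2 and 271 TPM in CTRL 4, in ranges of 227 to 245 TPM in Emul and 233 to 272 TPM in CTRL. On the members' log2 CPM scale, Emul 2 had a median excess of 0.03 for microglia, -0.28 for macrophage and 0.10 for endothelial markers. That of CTRL 4 was 0.09, -0.12 and 0.18. CTRL 4 was the highest CTRL library for 8 of 12 microglia and 8 of 11 endothelial markers, against 22.8% of all genes. Of the 13 lymphocyte and blood genes 3 passed the filter, Hba-a1, Hbb-bs and Ptprc, a surface phosphatase of white blood cells that microglia also carry, with 109 to 182 counts per library. Cd4 had at most 46.0 counts in a library, Cd8a 34.5, Cd3e 12 and Nkg7 1, and haemoglobin genes held most of the summed level of the list. S100a8 and S100a9, calcium-binding proteins of neutrophils and monocytes, did not pass the filter, with at most 26 and 39 counts in a library. Both were higher in Emul with no overlap between the groups: S100a8 averaged -1.70 log2 CPM in CTRL and -0.77 in Emul, and S100a9 -1.56 and -0.64. The part of depth and of these cell types in the members' pattern and in their differences between the groups was not tested.

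The counts of calls depended on which libraries were kept. Without CTRL 4, 10 of 36 members (27.8%) passed an unadjusted p under 0.05, all higher in Emul, against 12.5% of all genes: Rsad2, Ifit3, Ifit3b, Eif2ak2, Irf7, Isg15, Gbp3, Gbp7, Rtp4 and Sp100. Without Emul 2, 4 passed (11.1% against 16% of all genes), with Rsad2 and Ifit3b higher and Irf1 and Irf9 lower, and the median log2 fold change was 0.06. Without both, an alternative chosen after seeing the data, 8 passed (22.2% against 12.3% of all genes), and the median was 0.17. Of these, 7 were higher, Rsad2, Ifit3b, Eif2ak2, Irf7, Oasl2, Gbp3 and Sp100, and Irf1 was lower. Ifit3 was not among them. Without CTRL 2 or without CTRL 3 only Rsad2 and Irf1 passed (5.56%, against 13.6% and 12.8% of all genes). Without CTRL 1, Irf9, Irf1 and Rsad2 did (8.33% against 13.5%), and without Emul 3, Ifit3b, Irf1 and Rsad2 (8.33% against 14.9%). Without Emul 4 the count was 8 (22.2% against 17.4%).

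The promoter motifs can be set beside these values, as a description. The 18 genes with an ISRE core had a median log2 fold change of 0.18, and 17 of them were above 0, while the 12 with a window and no core had 0.09, with 8 above 0. All 4 genes that rose were among the 18 with a core, and 2 of them, Ifit3 and Ifit3b, have identical stretches. Irf1, which fell, held no ISRE core. The excess of Emul 2 had a median of 0.32 in the genes with a core and 0.22 in those with a window and no core, and it was 0.39 in the 6 tested genes without a window, whose median log2 fold change was 0.0046.

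Genes upstream of the members were read against the 15.8% of all genes that passed an unadjusted p under 0.05. Of 10 receptor and kinase genes, all were tested and only Ifnar1, a chain of the type I receptor, passed, at a log2 fold change of -0.11 (adjusted p = 0.242 by limma). Of 13 tested genes that carry the signal from the sensors to interferon production, only Mavs, the mitochondrial adaptor of RIG-I and MDA5, passed. Mavs fell by 0.23 on the log2 scale (adjusted p = 0.156 by limma), and its groups did not overlap. Among 10 inhibitors of the pathway, Ptpn1, a phosphatase that acts on Jak2 and Tyk2, fell by 0.091 on the log2 scale (adjusted p = 0.305 by limma).

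A wider list of 83 other interferon-stimulated genes gave the members a comparison. Of its 56 tested genes, 1 rose and 4 fell at an unadjusted p under 0.05, against 6.84% and 8.99% of all genes. Of the 56, 34 were above 0, against 50.8% of all genes, and the median was 0.04. Lgals9, a galectin, rose by 0.34 on the log2 scale (adjusted p = 0.233 by limma). Znfx1, an RNA helicase of mitochondria, fell by 0.23 (adjusted p = 0.0813 by limma), with no overlap between the groups, and Trim56 (-0.20), Cnp (-0.27) and Rnf31 (-0.12) also fell. Cnp is at the same time a myelin gene, and all 6 oligodendrocyte markers had a log2 fold change below 0, 5 of them at an unadjusted p under 0.05. Mx1, a GTPase that traps viral particles, had 0.28 (adjusted p = 0.549 by limma) from 25.5 to 61.3 counts per library. Emul 2 was the highest library for 12 of the 56 (21.4%) with a median excess of 0.09. The share in the members was 58.3% and their median excess 0.28. CTRL 4 was the highest CTRL library for 26 of the 56, with a median excess of 0.07.

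The dissection was checked against its markers. Agrp, Npy, Pomc, Cartpt, Tac2, Ghrh, Nr5a1, Fezf1, Nkx2-1, Tbx3 and Otp, genes of arcuate, ventromedial and neighbouring neurons, all passed the filter, and Kiss1 did not. Of these 11, Fezf1 was lower in Emul. Summed, the 12 markers had 573 to 611 TPM in CTRL and 510.0 to 742 TPM in Emul. Among cell types, Sall1 of the 12 microglia markers, Slco1a4 of the 11 endothelial markers and Gfap of the 8 astrocyte markers were lower in Emul. No other marker of these lists passed, while 5 of 8 neuron markers were higher. All are at an unadjusted p under 0.05, which 15.8% of all genes passed. Above 0 were 6 of the 12 microglia, 6 of the 11 endothelial, 1 of the 8 astrocyte and 6 of the 8 neuron markers. The part of these marker differences in the members' differences was not tested.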

How the data were processed

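RNA of the mediobasal hypothalamus of 4 CTRL and 5 Emul males at P21 was sequenced from strand-specific paired-end libraries. Per the labels and the submitters' processing notes, reads were checked with FastQC 0.11.9 and quantified with kallisto 0.46.1 on mm10, and edgeR 3.40.1 was used. The authors deposited estimated counts and TPM for 119414 transcripts per library, and a log2 CPM table of named genes. How that table was summed and scaled is not given in the sources used here.

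Estimated counts were summed per gene with GENCODE M21, which matched 97.8% of transcripts; 1.20% to 1.27% of the counts lay on unmatched ones. Libraries held 28245360 to 46067534 estimated counts, and genes with few counts are the least precise. No pair of libraries in a group agreed within sampling noise (lowest chi-square per gene 7.49). Genes above 1 CPM in at least 4 libraries were tested with limma 3.58.1 (voom, TMM factors from edgeR 4.0.16, Benjamini-Hochberg adjustment over all 15340 genes), checked first on made-up counts with known answers. Log2 CPM used a prior count of 2. Single genes were also given an exact two-sided permutation test of the group means over all 126 assignments of the libraries. The deposited table was tested with limma-trend with no pseudocount. Litters are the replicates; p-values measure the spread between them.

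The members and all lists were chosen with earlier results of these data known. Every member is named; values in every library are given for 15 members fixed by name and for further members with an unadjusted p under 0.05 or no overlap, and other lists by up to 5 genes with the smallest p under 0.05; some results are not reported here. Alternatives were edgeR, DESeq2 1.42.0, limma-trend, other scalings, filters, thresholds and transcript sets, sample weights, a replicate block and each library left out. R 4.3.3 and Python were used. Transcript words are 31 bases long.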

Additional observations from a re-analysis of the deposited data

Results flagged for a closer look

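In each group of 4 or 5 libraries, the gap of the highest or lowest library to its nearest neighbour, divided by the group's range, was set against the 95% limit of Dixon's test. Over the 74 groups of the 37 genes, chance gives about 3.7 such gaps at 1 in 20, and 4 were found. Ifit2 was low in CTRL 3, at 3.72 log2 CPM against 4.30 to 4.33 in the other CTRL libraries, a gap of 0.947 of the range. Ifi27 was low in the same library, at 3.24 against 3.66 to 3.75, a gap of 0.836. Gbp7 was high in Emul 2, at 2.82 against 2.53 to 2.61 in the other Emul libraries, a gap of 0.713. Igtp was low in Emul 3, at 1.19 against 1.52 to 1.58, a gap of 0.839.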

How the results depend on the processing

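Of 448 values of 18 named members under alternatives, 401 kept their direction and their side of an unadjusted p of 0.05, 22 lost the threshold, 20 crossed it and 5 reversed. The reversed values were those of Ddx58 with protein coding transcripts alone (-0.082) and, with 1 library left out, of Ddx58 (-0.017 to 0.11, below 0 without CTRL 1 or Emul 2), Ifit1 (-0.0090 to 0.56, below 0 without Emul 2) and Igtp (-0.15 to 0.20, below 0 without CTRL 1). Of 449 values of the 18 other tested members, 16 reversed, none at an unadjusted p under 0.05: Ifi44, Parp9 and Parp14 in the authors' table (-0.19, 0.15 and 0.046) and with counts scaled for length (-0.22, 0.16 and 0.0051), Parp14 without CTRL 4 and Emul 2 together (0.065), Xaf1 with protein coding transcripts (-0.072), and with 1 library left out Parp14 (0.11), Parp9 (0.010), Gbp2 (-0.0064), Ifi27 (-0.015), Trim25 (-0.0064) and Ifi35 (0.042 to 0.046). In place of 5 members (13.9% against 15.8% of all genes), 0 passed an adjusted p under 0.05, an adjusted p under 0.10 or the requirement of no overlap. Of all genes, 0.117%, 0.398% and 6.6% passed these. Without CTRL 4 and Emul 2 together 8 passed (22.2% against 12.3% of all genes). Leaving out 1 library gave 2 to 10 members. The 2 were without CTRL 2 or CTRL 3 (5.56%, against 13.6% and 12.8% of all genes) and the 10 without CTRL 4 (27.8% against 12.5%). At more than 1.5-fold, 1 member passed in the main fit (2.78% against 0.469% of all genes). The count was 0 with library size alone, with sample quality weights or after thinning. It was 2 in the authors' table, 2 with the replicate block and 0 to 2 when 1 library was left out. The share of all genes above 1.5-fold was not counted in these other fits, so their counts cannot be read against it. The cause of these shifts in count was not tested. The median log2 fold change of members stayed between 0.06 and 0.21 in all fits. With the replicate block, 6 members passed (16.7% against 12.3% of all genes), and the median was 0.16. Over all genes, the deviations of same-numbered libraries had correlations of -0.16 to 0.02. Such values cannot show whether same-numbered libraries shared a batch, and the labels do not say what the numbers stand for. The alternatives with thinning, with both libraries left out and with Ifit3 and Ifit3b summed were chosen after seeing the data. Depth limits Zbp1, the ligands and members under 100 counts per library.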

Other observations

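Among the markers of other cell types, genes of the neuron, oligodendrocyte and astrocyte lists passed the unadjusted threshold. Mbp (-0.29 on the log2 scale), Mag (-0.31), Mobp (-0.30) and Cnp (-0.27), which build and hold myelin, were lower in Emul at an unadjusted p under 0.05 by limma. Gfap, the intermediate filament of astrocytes, fell by 0.40 on the log2 scale, with no overlap between the groups. Rbfox3 (0.12), Tubb3 (0.12), Stmn2 (0.17), Snap25 (0.11) and Slc17a6 (0.29), genes of neurons, were higher at the same threshold. Of the 8 neuron markers 6 were above 0, as was 1 of the 8 astrocyte markers, of which only Gfap passed. Of all genes, 6.84% passed as higher and 8.99% as lower. None of these genes passed an adjusted p under 0.05 by limma.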
